A study of Mus musculus with 6 samples.

Results

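The 62 genes described here form the cell-surface and cytoplasmic part of the WNT pathway: ligands, the proteins that let ligands leave the cell, Frizzled and LRP receptors, secreted antagonists, R-spondins with their LGR receptors and ubiquitin ligases, and the cytoplasmic proteins that relay or restrain the signal. They were taken by gene symbol from the 23366 genes counted in every library: all *Wnt*, *Fzd*, *Dkk*, *Sfrp* and *Rspo* genes, *Dvl1* to *Dvl3*, *Axin1* and *Axin2*, and 16 single genes, among them *Porcn*, *Wls*, *Lrp6*, *Lgr4* and *Notum*. The rule reads symbols and no expression value, but it was written with earlier results of these data known. The study asked what the loss of TCF7L1, a DNA-binding partner of β-catenin that mostly represses transcription, does to the epithelium of the mouse embryonic gut. EpCAM-positive cells of the small intestine were sorted at embryonic day 13.5, 500 cells a library, and RNA was amplified over 15 PCR cycles before sequencing. The mutant group was Shh-cre-egfp:Tcf7l1 lox/lox (n = 3), in which Cre recombinase, driven from the *Shh* locus that the gut epithelium uses, removes a floxed part of *Tcf7l1*. The control group was wild type (n = 3), with no Cre in its label, so the Cre allele and the loss of TCF7L1 cannot be told apart. No litter or genetic background was given for either group. Sex differed between the groups as well. *Xist* had 0 reads in the wild type libraries and 229 to 424 in the mutants, and the Y-linked *Ddx3y* had 1837 to 2254 and 0. Genotype and the sex of the embryos therefore cannot be told apart for any gene here, X-linked or not. Each library held bulk RNA, so fewer cells that express a gene and less RNA per cell cannot be told apart either.

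WNT ligands are lipid-modified by Porcupine (*Porcn*) and carried to the cell surface by Wntless (*Wls*). At the receiving cell they bind a Frizzled receptor together with LRP5 or LRP6. Dishevelled proteins (*Dvl*) then hold back the destruction complex of AXIN, APC and GSK3, and β-catenin accumulates and acts with TCF/LEF proteins on target genes. Secreted Frizzled-related proteins (*Sfrp*) and Dickkopf proteins (*Dkk*) act outside the cell, mostly as antagonists, while R-spondins bound to LGR4, LGR5 or LGR6 protect Frizzled receptors from the ubiquitin ligases RNF43 and ZNRF3. In the gut, WNT signalling maintains proliferating progenitors, and much of the ligand comes from the mesenchyme around the epithelium.

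Total counts ran from 18216537 to 20397278 a library, so 3 counts, the smallest number read here as a signal, stood for 0.143 to 0.170 CPM (counts scaled to a common total). *Tcf7l1* itself had normalized counts of 475, 473 and 363 in wild type libraries 1 to 3 and 41.3, 32.9 and 72.8 in mutant libraries 1 to 3, a log2 fold change of -3.16 (SE 0.26, adjusted p = 4.2e-07 from the quasi-likelihood test of edgeR, Benjamini-Hochberg adjusted over all tested genes, as are all adjusted p-values here), so every library matched its label. Normalized counts are read counts scaled by the trimmed mean of M values (TMM) to a common library size, and every log2 fold change is mutant over wild type. The 13 epithelial markers, all detected, summed to between 185903 and 198451 normalized counts in the wild type libraries and between 184092 and 188041 in the mutants (5 of 13 called lower). Of 9 endothelial markers 4 (*Cdh5*, *Kdr*, *Tek* and *Emcn*) were at 0 in all 6 libraries, *Egfl7* had 1214 to 1499 normalized counts and made up nearly all of the list's sum of 1219 to 1512, and *Pecam1* reached 20.7. Counts of any 2 libraries of a group differed beyond the sampling noise of reads (chi-square per gene from 6.30 to 17.9), and all 6 were kept as separate samples. These values cannot show whether the libraries came from separate embryos, since separate amplification alone can add such noise.

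Of the 62 members, 35 had enough reads to be tested and 27 did not. Of the tested members 5 fell: *Sfrp5*, *Dkk3*, *Porcn*, *Fzd2* and *Fzd10*, that is, 2 antagonists, 1 secretion enzyme and 2 receptors. None rose by edgeR or by DESeq2, and at an unadjusted p under 0.05 only 1 tested member, *Gsk3b*, was higher. A gene was called where its adjusted p was under 0.01, its log2 fold change was 0.5 or more in size and its normalized counts averaged 50 or more. Those 5 are 14.3% of the tested members, beside 5.83% of all 12501 tested genes called lower and 2.78% called higher. Only the 30 tested members that averaged 50 or more could be called, and 5 of these 30 were called lower, beside 6.9% of all such genes. At an adjusted p under 0.05 alone, 14 members were lower (40.0%, beside 15.1% of all tested genes) and 1, *Gsk3b*, was higher (beside 13.6%). The 3 libraries of each group did not overlap for 16 members that were lower in mutants (45.7%, beside 22.2%) and for 1 that was higher (beside 20.8%), with 43.0% of all tested genes not overlapping in either direction. With the other limits kept, 10 of the 35 tested members were called lower at an adjusted p under 0.05 (beside 9.42% of all tested genes). At a log2 fold change of 1 or more in size 3 of the 35 were called lower (beside 2.27%). With a mean RPKM of 50 or more in place of the count limit, 1 of the 35, *Sfrp5*, was called lower (beside 0.24%). Among the tested members 31 had a negative log2 fold change and 4 a positive value, beside 54.3 and 45.7% of all tested genes, and their median was -0.45, against -0.04 over all tested genes.

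**Figure D1:**
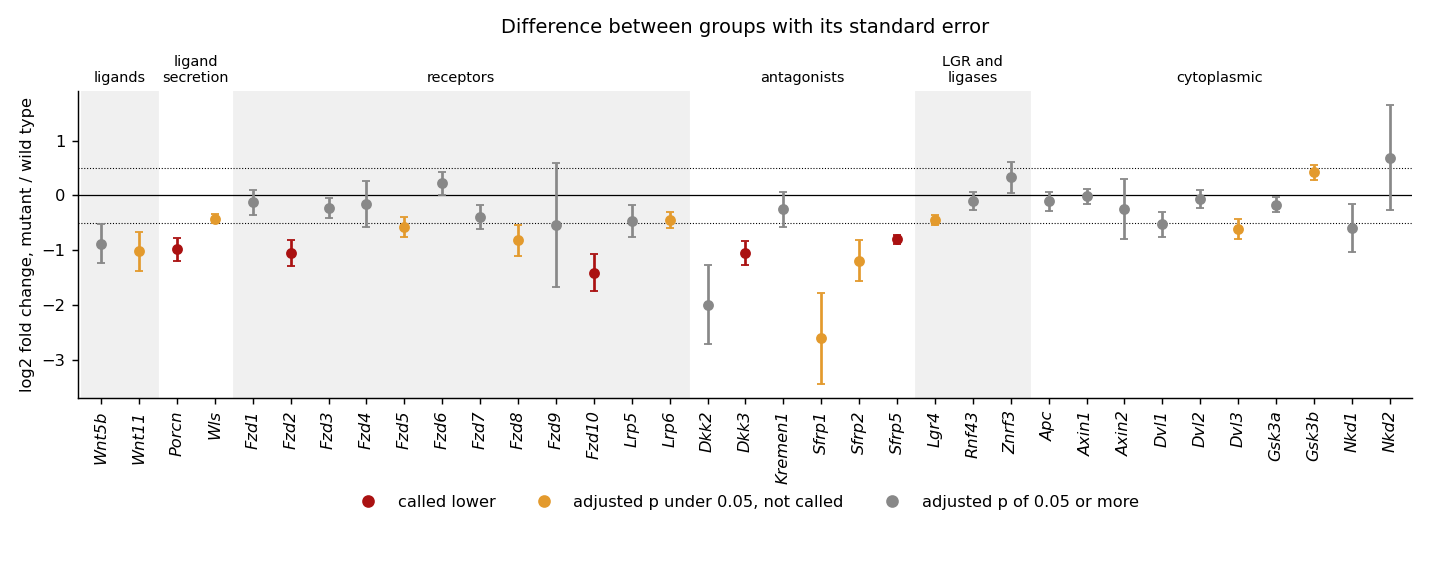
The log2 fold change of each of the 35 tested members (mutant over wild type, y axis) with its standard error, ordered by role along the x axis, with dotted lines at the call limits of 0.5 and -0.5. The 5 members called lower are red, and most others also sit below 0, between 0 and -1.

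**Figure D2:**
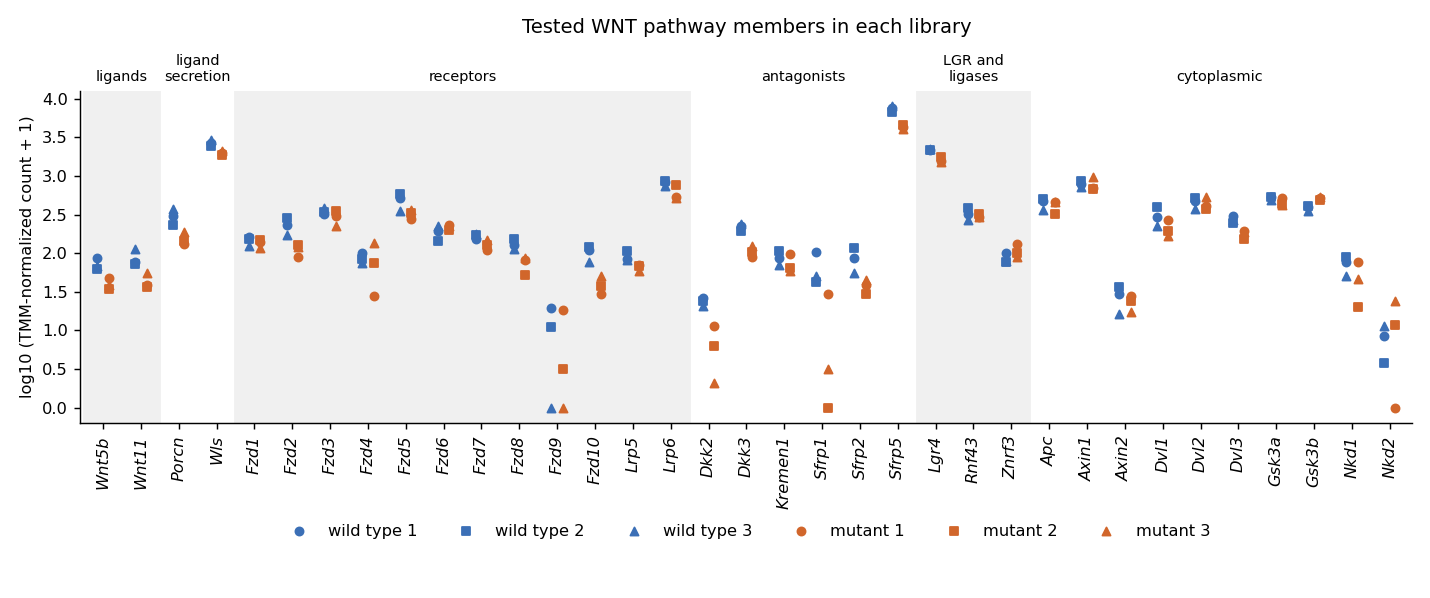
The log10 of the TMM-normalized count plus 1 of each tested member in each of the 6 libraries, wild type in blue and mutant in orange, with the marker shape giving the library number. *Sfrp5*, *Wls* and *Lgr4* have the highest normalized counts and their groups do not overlap, while *Fzd9*, *Sfrp1* and *Nkd2* reach 0 in at least 1 library.

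These shares describe the tested members only. The filter kept 31 members that passed its limit of 0.509 CPM in all 6 libraries, 3 that passed in more wild type than mutant libraries (*Dkk2*, *Sfrp1*, *Fzd9*) and 1 with the reverse (*Nkd2*). Of the 27 left out, 5 had no read in any library: the ligand genes *Wnt3a* and *Wnt8a*, the ligand-inactivating esterase *Notum*, the R-spondin *Rspo2* and the antagonist *Dkk4*. A further 17 had 1 to 10 reads summed over all libraries, with at most 5 in a library. The remaining 5 were *Wnt2*, *Wnt4*, *Wnt7b*, *Sfrp4* and *Rspo1*.

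Among 19 ligand genes only *Wnt5b* and *Wnt11*, both best known from signalling that does not run through β-catenin, reached the tested range. Per transcript length they took 46.7% and 38.0% of the summed ligand level in wild type libraries. The sum fell short of most other families, at 3.39 ± 0.166 RPKM in wild type and 1.89 ± 0.138 in mutant libraries (SD, n = 3 each). RPKM here is TMM-normalized CPM per kilobase of the longest transcript. Exons of another gene on the opposite strand cover 364 of the *Wnt11* exon bases.

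The promoters of *Wnt5b* and *Wnt11* are printed here because each holds a TCF motif, the sequence class that TCF7L1 binds. The windows run from 250 bases before to 50 after an annotated start (RefSeq, mouse build GRCm38.p6), 5′ to 3′ on the gene's strand, with the motif in capitals. That of *Wnt5b* is chr6:119449337-119449636 on the minus strand, 1 of 3 annotated starts, and that of *Wnt11* is chr7:98834862-98835161 on the plus strand, 1 of 2.
Wnt5b: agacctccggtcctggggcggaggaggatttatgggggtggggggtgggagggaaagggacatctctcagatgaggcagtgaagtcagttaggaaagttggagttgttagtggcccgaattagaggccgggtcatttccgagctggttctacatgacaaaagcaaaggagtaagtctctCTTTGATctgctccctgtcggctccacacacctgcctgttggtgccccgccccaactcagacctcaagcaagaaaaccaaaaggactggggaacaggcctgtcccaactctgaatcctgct
Wnt11: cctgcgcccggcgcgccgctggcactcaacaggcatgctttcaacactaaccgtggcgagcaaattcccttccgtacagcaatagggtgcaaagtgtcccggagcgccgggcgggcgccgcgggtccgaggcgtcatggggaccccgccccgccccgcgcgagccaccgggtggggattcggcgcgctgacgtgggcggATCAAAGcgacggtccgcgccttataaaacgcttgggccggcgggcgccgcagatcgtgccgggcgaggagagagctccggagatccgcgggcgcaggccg
The motifs searched were CTTTGAA and CTTTGAT on both strands. The *Wnt5b* match begins 71 bases before the start, and the *Wnt11* match, on the opposite strand, 51 bases before it. Of the 62 members 40 had a window, and 4 of the 40 held a match (*Dkk1* and *Gsk3a* besides these). By window, 4 of 44 member windows (9.09%) and 2842 of all 32851 windows (8.65%) held one, so the members' share was close to that of promoters in general. A match describes letters, not binding, and nothing follows about TCF7L1 from a window without them.

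*Wnt11* had 76.7, 70.7 and 112 normalized counts in wild type libraries 1 to 3 and 38.2, 35.1 and 54.1 in mutant libraries 1 to 3. Every mutant library lay below every wild type library. The log2 fold change was -1.02 (SE 0.35, adjusted p = 0.039), which passes 0.05 but not the call limit. For *Wnt5b* the values were 87.0, 62.3 and 68.3 against 47.5, 32.9 and 37.5, again without overlap, at -0.88 (SE 0.36, adjusted p = 0.078).

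The 17 other ligands had too few reads for the test, and 14 of them had 10 reads or fewer in all, including *Wnt3*, a ligand of the adult crypt epithelium, and *Wnt5a*, mostly a mesenchymal ligand. *Wnt4* had 22, 31 and 4 reads in wild type and 5, 1 and 1 in mutant libraries. The mutant level was 14.0% of that in wild type, and the exact 95% interval, which covers counting error only, ran from 5.37 to 30.6%. Without mutant library 1 it was 6.08%. *Wnt7b* had 2, 26 and 3 reads against 0 in all mutant libraries, at least 9.10-fold lower taking 3 counts over the mutant group as the floor, but 26 of its 31 reads came from wild type library 2, and without it the bound was 2.21-fold, or from 5.97 to 6.17-fold with 1 mutant library left out. *Wnt2* had 8, 2 and 4 reads in wild type and 2, 18 and 5 in mutant libraries, with overlap.

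Both tested secretion genes had lower values in mutants. *Porcn* (chrX:7770974-7783651, minus strand, build mm9), the acyltransferase that adds the lipid to WNT ligands, had 306, 231 and 374 normalized counts in wild type and 131, 142 and 185 in mutant libraries. The lowest wild type library exceeded the highest mutant library. *Porcn* fell to 50.4% of the wild type level, a log2 fold change of -0.99 (SE 0.22, adjusted p = 0.0034). Without wild type library 1 or 3, or mutant library 1 or 2, the adjusted p lay between 0.015 and 0.020 and the call was lost, with log2 fold changes of -0.98, -0.80, -0.89 and -0.94. *Porcn* is X-linked, and *Xist* had 0 reads in the wild type libraries and 229 to 424 in the mutant libraries while the Y-linked *Ddx3y* had 1837 to 2254 and 0, so genotype and the sex of the embryos cannot be told apart. Of 422 tested X-linked genes, 5.92% were called lower, beside 5.83% over all genes. A share over the chromosome does not tell sex and genotype apart for *Porcn* itself.

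*Wls*, the carrier of ligands to the surface, had the highest level per transcript length after *Sfrp5* (41.7 RPKM in wild type), at 2657, 2481 and 2913 normalized counts in wild type and 1962, 1882 and 2143 in mutant libraries. The groups did not overlap. The difference of -0.43 (SE 0.09, adjusted p = 0.0020) passed the p limit but stayed under the fold limit, at 74.4% of the wild type level. With library size as the only scaling it was -0.53 and was called. That scaling moved the median of all tested genes from -0.04 to -0.15 and the share of calls that were higher from 32.3 to 17.3%, and the members' median from -0.45 to -0.56.

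All 12 receptor genes were tested. *Fzd2* and *Fzd10* fell, and 11 of the 12 had a negative log2 fold change, the exception being *Fzd6* at 0.22 (SE 0.21, adjusted p = 0.46). *Fzd2* (chr11:102465745-102469372, plus strand, mm9) had 228, 287 and 174 normalized counts in wild type and 88.8, 126 and 118 in mutant libraries, with no overlap. It fell to 48.4% of the wild type level, a log2 fold change of -1.05 (SE 0.24, adjusted p = 0.0043). The call was lost without wild type library 1 or 2, or mutant library 1 or 3, with log2 fold changes of -1.05, -0.85, -0.91 and -1.09 and adjusted p from 0.012 to 0.034.

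*Fzd10* (chr5:129106719-129109968, plus strand, mm9) had 110, 121 and 76.8 normalized counts in wild type and 28.9, 37.2 and 49.7 in mutant libraries. The mutant values were all below the lowest wild type value. Its level of 37.6% of wild type was the lowest among the 5 called members, a log2 fold change of -1.41 (SE 0.34, adjusted p = 0.0064). The adjusted p rose to 0.010 with a correction for gene length, just over the limit, and to between 0.023 and 0.038 without wild type library 1 or 2 or mutant library 1 or 2, with log2 fold changes from -1.39 to -1.24 in those 4 fits. Its promoter window (chr5:128600856-128601155, plus strand, GRCm38.p6), printed as that of the called receptor with a RefSeq window, holds neither motif.
Fzd10: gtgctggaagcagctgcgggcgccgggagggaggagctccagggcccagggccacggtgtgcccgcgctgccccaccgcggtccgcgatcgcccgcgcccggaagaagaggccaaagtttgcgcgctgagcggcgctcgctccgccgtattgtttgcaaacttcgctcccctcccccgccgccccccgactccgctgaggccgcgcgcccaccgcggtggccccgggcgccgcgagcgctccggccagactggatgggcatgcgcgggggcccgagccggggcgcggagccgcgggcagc
Its GC content was 77.7%.

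*Fzd5*, a receptor known to act in the intestinal epithelium, *Fzd8* and the co-receptor *Lrp6* passed 0.05 but not the call limits. *Fzd5* had 512, 593 and 348 normalized counts in wild type and 275, 334 and 365 in mutant libraries, so wild type library 3 lay below mutant library 3. Its log2 fold change was -0.58 (SE 0.19, adjusted p = 0.032), and without wild type library 3 it was -0.75 (adjusted p = 0.0033) and was called. *Fzd8* had 127, 151 and 111 against 81.6, 52.1 and 86.1, without overlap, at -0.82 (SE 0.28, adjusted p = 0.039). *Lrp6* had 849, 874 and 740 against 532, 764 and 514, where mutant library 2 reached the wild type range, at -0.44 (SE 0.15, adjusted p = 0.036). Without mutant library 2 it was -0.65 (adjusted p = 0.0055) and was called. *Lrp5*, the less abundant co-receptor at 0.893 RPKM in wild type beside 4.50 for *Lrp6*, had a log2 fold change of -0.46 (95% interval -1.09 to 0.16).

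The Frizzled genes differed in level and in share. Summed over the 10 genes, the level per transcript length was 22.4, 23.7 and 19.9 RPKM in wild type and 15.2, 16.6 and 16.8 in mutant libraries. No mutant sum reached the lowest wild type sum, and the mutant mean of 16.2 ± 0.873 was below the wild type mean of 22.0 ± 1.96 (SD, n = 3 each). *Fzd3*, which is known for its part in axon guidance and planar polarity, was the most abundant, at 4.27 ± 0.400 RPKM in wild type, followed by *Fzd5* at 3.60 ± 0.928 and *Fzd2* at 3.25 ± 0.806, neighbours whose ranges of mean ± SD overlapped. In mutant libraries the order was *Fzd3* at 3.62 ± 0.806, *Fzd6* at 2.72 ± 0.201 and *Fzd5* at 2.41 ± 0.341, with ranges that overlapped again. *Fzd6* took 10.7, 7.59 and 14.2% of the Frizzled sum in wild type and 19.0, 15.0 and 16.6% in mutant libraries. The share of *Fzd10* went from 7.31 ± 1.05% to 3.73 ± 0.850% and that of *Fzd2* from 14.6 ± 2.40% to 9.65 ± 1.27%. These shares are descriptions, since they were given no test of their own, and *Fzd6* passed no test in counts.

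**Figure D3:**
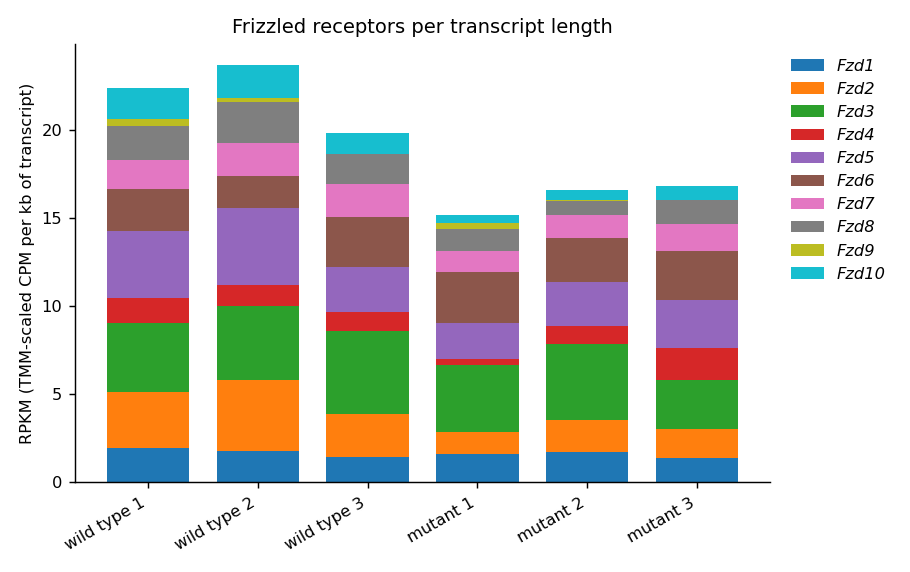
Stacked bars of the level of the 10 Frizzled genes per transcript length (RPKM from TMM-scaled counts, y axis) in each of the 6 libraries (x axis). The 3 mutant bars end between 15.2 and 16.8 and the 3 wild type bars between 19.9 and 23.7, with narrower *Fzd2* and *Fzd10* layers in the mutants.

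*Fzd1*, *Fzd3*, *Fzd4* and *Fzd7* had log2 fold changes from -0.40 to -0.13 and passed no limit. *Fzd4* had 101, 83.7 and 74.9 normalized counts in wild type and 26.9, 73.3 and 134 in mutant libraries, so the mutant libraries alone spanned more than the wild type group, and its interval ran from -1.05 to 0.74. *Fzd9* had 20, 11 and 0 reads against 17, 2 and 0.

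Secreted antagonists held the most abundant member, and their median log2 fold change was -1.12 over 6 tested of 10 genes. That median takes in *Sfrp1* (-2.61) and *Dkk2* (-1.99), the lowest values of the role. Both passed the filter in more wild type than mutant libraries, so the median is not free of the filter and the roles are not ranked by it. *Sfrp5* (chr19:42272461-42276742, minus strand, mm9), a secreted Frizzled-related protein of the gut endoderm, had 7722, 6803 and 8089 normalized counts in wild type and 4276, 4544 and 4120 in mutant libraries. The groups lay far apart relative to their spread, 7538 ± 662 against 4314 ± 215 (SD, n = 3 each). *Sfrp5* fell to 57.2% of the wild type level, a log2 fold change of -0.81 (SE 0.08, adjusted p = 2.5e-06), and was called under every change of fit and without each of the 6 libraries, between -0.87 and -0.74 in the latter.

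Per transcript length *Sfrp5* stood at 204 ± 17.9 RPKM in wild type and 117 ± 5.80 in mutant libraries, which was 98.5 and 99.1% of the summed level of the Sfrp family. The family sum, from 112 to 124 RPKM in mutant and from 187 to 221 in wild type libraries, was above the summed level of the 10 Frizzled genes in all 6 libraries. The promoter window is printed as that of the member with the highest level (chr19:42202203-42202502, minus strand, GRCm38.p6). It holds neither motif.
Sfrp5: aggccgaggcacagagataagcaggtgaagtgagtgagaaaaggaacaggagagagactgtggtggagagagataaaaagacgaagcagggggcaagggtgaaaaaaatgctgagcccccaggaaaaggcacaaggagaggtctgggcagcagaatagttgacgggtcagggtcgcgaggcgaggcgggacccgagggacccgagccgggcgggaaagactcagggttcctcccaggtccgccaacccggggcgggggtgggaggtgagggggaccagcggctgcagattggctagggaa
Its GC content was 61.3%.

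*Dkk3* (chr7:119259533-119302571, minus strand, mm9), a secreted Dickkopf relative whose action on WNT signalling varies with the cell type, had 223, 192 and 235 normalized counts in wild type and 87.8, 104 and 123 in mutant libraries. Every wild type value was well above every mutant value. It fell to 48.4%, a log2 fold change of -1.05 (SE 0.22, adjusted p = 0.0026). Without wild type library 1 or mutant library 1 or 2 the adjusted p was 0.014, 0.015 and 0.011 and the call was lost, with log2 fold changes of -1.03, -0.93 and -1.04.

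The antagonist genes *Sfrp2*, *Sfrp1* and *Dkk2* were low and lower still in mutants. *Sfrp2* had 85.1, 114 and 55.0 normalized counts in wild type and 38.2, 28.7 and 44.1 in mutant libraries, without overlap, at -1.19 (SE 0.38, adjusted p = 0.027), and without wild type library 3 it was called at -1.41 (adjusted p = 0.0098). The opposite strand carries exons of another gene over 16.1% of its exon bases. *Sfrp1* had 110, 45 and 52 reads in wild type and 28, 0 and 2 in mutant libraries, and its mutant level was 16.5% of wild type (exact 95% counting interval 10.8 to 24.2%), or 1.67% without mutant library 1 and 24.7% without mutant library 2. In the fit it passed 0.05 (adjusted p = 0.028) with a mean under 50. *Dkk2*, which binds LRP6, had 27, 25 and 21 reads against 10, 5 and 1, with a mutant level of 24.9% of wild type (13.5 to 43.2%). That level was 14.2% without mutant library 1 and 34.4% (18.3 to 60.6%) without mutant library 3. In the fit its adjusted p of 0.050 missed the limit.

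*Sfrp4* was not tested, with 13, 27 and 8 reads in wild type and 0, 4 and 2 in mutant libraries, 14.2% of the wild type level (4.97 to 33.2%). That level was 7.11% without mutant library 2 and from 21.5 to 21.6% without wild type library 2 or mutant library 1. The Dickkopf receptor gene *Kremen1* had a log2 fold change of -0.25 (95% interval -0.93 to 0.42). *Dkk1*, *Dkk4* and *Wif1*, 3 well-known antagonists, had no more than 2 reads in any library.

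Several *Sfrp* and *Dkk* genes are known to be active in gut mesenchyme. Mesenchymal markers were low beside the epithelial markers, but not beside the scarcer antagonists. Over all libraries *Sfrp1*, *Dkk2* and *Sfrp4* averaged 37.5, 14.2 and 8.55 normalized counts. The mesenchymal markers *Postn*, *Pdgfrb*, *Col3a1* and *Des* averaged 41.1, 22.7, 18.1 and 13.9. The 27 markers of the list summed to between 2363 and 2926 normalized counts in the wild type libraries and between 1729 and 2554 in the mutants, most of it *Vim* and *Fn1*, and 1 of its 13 tested genes (*Fn1*) was called lower. Of the 13, 8 had a negative and 5 a positive log2 fold change. The tested fibroblast markers of the list all had negative log2 fold changes. *Fn1* was at -0.63, and *Col3a1* was lower without overlap but not called (-2.21, adjusted p = 0.026). *Pdgfrb* (-1.45), *Col5a1* and *Lum* (-0.97 each) and *Postn* (-0.12) were not called, and their groups overlapped. The untested fibroblast markers were low and went both ways. *Dcn* had 83, 0 and 3 reads in wild type and 5, 9 and 2 in mutant libraries. *Col1a1*, at 16.8, 0 and 1.9 normalized counts in wild type, and *Pdgfra*, at 21.5, 5.6 and 19.9, were at no more than 1.1 in any mutant library. Neither was tested, and the *Col1a1* signal came mostly from wild type library 1. *Col1a2* and *Prrx1*, not tested either, had 10 and 9 reads summed over wild type and 19 and 30 over mutant libraries. The smooth muscle markers *Acta2* (1.52 on the log2 scale, adjusted p = 0.014) and *Tagln* (1.31, adjusted p = 0.026) were higher in mutants without being called. They had no more than 105 and 81.9 normalized counts in any wild type library, and their groups overlapped. Their highest values, 488 and 264, were in mutant library 3. The gastric sum lay between 1925 and 1994 in the wild type libraries and between 226 and 282 in the mutants (4 of 10 tested genes called lower), the enterocyte sum between 25074 and 26528 and between 33884 and 35929 (6 of 13 called higher). Sums were lower in every mutant library for markers of the anterior intestine (3626 to 4470 against 2915 to 3118, 2 of 4 tested called lower), the posterior intestine (2811 to 3195 against 1992 to 2202, 0 of 3 called), mesothelium (6033 to 7349 against 4644 to 4906, 2 of 5 called lower) and pancreas (401 to 630 against 219 to 292, 1 of 3 called lower), and the neural crest and blood sums overlapped between the groups. Most of the mesothelium sum was *Krt7*, at 5722 on average in wild type and 3880 in mutant libraries. In the same list *Msln* was also called lower (-2.27), while *Upk3b* (0.39) and *Podxl* (0.14) had positive log2 fold changes and were not called. *Shh*, whose locus drives Cre, fell from 480 to 197 on average (-1.28, SE 0.17, adjusted p = 6.1e-05). The part of these differences in the lower WNT members was not tested.

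All 4 R-spondin genes were at or near 0. *Rspo1* alone exceeded 10 reads in sum, with 14, 0 and 1 in wild type and 7, 1 and 7 in mutant libraries. Their receptor *Lgr4* ranked below *Sfrp5* and *Wls* alone per transcript length, at 22.3 RPKM in wild type, with 2196, 2152 and 2243 normalized counts in wild type and 1553, 1749 and 1512 in mutant libraries, without overlap. The log2 fold change of -0.45 (SE 0.09, adjusted p = 0.0013) stayed under the fold limit, at 73.0% of wild type. It was called at -0.56 with library size as the only scaling and at -0.52 without mutant library 2.

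The ligases that take Frizzled receptors off the surface showed no difference beyond their spread. *Rnf43* had 326, 386 and 268 normalized counts in wild type and 297, 322 and 296 in mutant libraries, at -0.10 (95% interval -0.46 to 0.26). *Znrf3* had 100, 75.3 and 78.7 against 131, 99.9 and 88.3, at 0.33 (95% interval -0.26 to 0.92). Their summed level was 4.58 ± 0.694 RPKM in wild type and 4.49 ± 0.222 in mutant libraries.

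None of the 10 cytoplasmic members was called, and their median log2 fold change was -0.14, beside -0.04 over all tested genes. The median of the 3 tested LGR and ligase genes was -0.10 and that of the receptors -0.45. The roles are not ranked by these medians. *Dvl3*, 1 of the 3 Dishevelled relays, had 301, 243 and 270 normalized counts in wild type and 191, 152 and 188 in mutant libraries, without overlap, at -0.62 (SE 0.19, adjusted p = 0.022). *Dvl1* was at -0.52 (95% interval -1.01 to -0.04, adjusted p = 0.097) and *Dvl2*, which shares 18.3% of its exon bases with exons of *Acadvl* on the opposite strand, at -0.06 (-0.42 to 0.30).

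*Gsk3b*, a kinase that marks β-catenin for destruction, was the only member higher at an adjusted p under 0.05. It had 395, 411 and 354 normalized counts in wild type and 525, 489 and 538 in mutant libraries, so every mutant library lay above every wild type library. The log2 fold change was 0.42 (SE 0.14, adjusted p = 0.033), under the fold limit. Its paralogue *Gsk3a*, with opposite-strand exons over 19.3% of its exon bases, had 536, 536 and 484 against 524, 436 and 421, at -0.17 (95% interval -0.47 to 0.12). The scaffolds *Axin1* and *Apc* differed little, at -0.02 (-0.31 to 0.28) and -0.10 (-0.47 to 0.27), and their groups overlapped.

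Of the 62 members 6 are negative-feedback genes that WNT signalling itself is known to switch on in many tissues: *Axin2*, *Nkd1*, *Nkd2*, *Rnf43*, *Znrf3* and *Notum*. None of the 5 tested was called or passed 0.05, and none separated the groups. *Axin2* had 29.0, 35.3 and 15.2 normalized counts in wild type and 26.9, 23.4 and 16.6 in mutant libraries, at -0.25 with an interval of -1.41 to 0.91. *Nkd1* had 76.7, 87.4 and 49.3 against 76.5, 19.1 and 45.3, at -0.60 (-1.54 to 0.34). *Nkd2* had 8, 3 and 11 reads in wild type and 0, 10 and 21 in mutant libraries, 160% of the wild type level with a counting interval of 89.8 to 290%, or 244% without mutant library 1 and 76.2% without mutant library 3. At these levels a change of the size seen for *Fzd2* was within the intervals of *Axin2* and *Nkd1*.

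**Figure D4:**
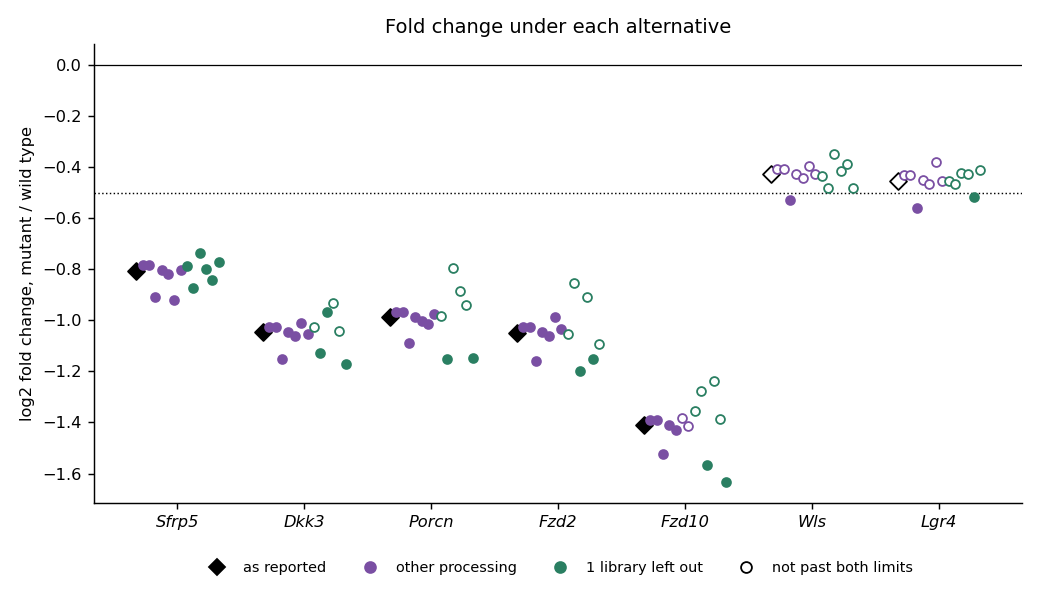
The log2 fold change (mutant over wild type, y axis) of the 5 called members and of *Wls* and *Lgr4*, with a black diamond for the reported fit, purple points for other processing and green points for fits without 1 library. Filled points are called, open points are not, and the dotted line is the fold limit of -0.5. All *Sfrp5* points are filled, *Fzd10* has 6 open points, and no point crosses 0.

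Genes of the pathway outside the 62 members were read the same way. Of 59 other WNT pathway genes in the files (β-catenin, casein kinases, TCF factors and corepressors, alternative receptors, polarity proteins and others) 47 were tested, 1 fell and none rose, 2.13% called lower beside 5.83% of all tested genes. At an adjusted p under 0.05, 16 were lower (34.0%, beside 15.1%) and 1 higher, and the median log2 fold change was -0.30, beside -0.04 over all tested genes. The gene that fell was *Gpc3*, an X-linked cell-surface proteoglycan, from 10113, 8763 and 9676 normalized counts in wild type to 4829, 4008 and 5080 in mutant libraries (-1.04, SE 0.09). For it, as for every gene here, genotype and sex cannot be told apart. The list of 19 WNT target genes shares *Lgr5*, *Tcf7*, *Lef1* and *Apcdd1* with the list of 59. Of the 19 target genes 17 were tested, 3 fell (17.6%, beside 5.83% of all tested genes) and none rose, with a median of -0.25 beside -0.04. By DESeq2 none rose in either list, and at an unadjusted p under 0.05 by edgeR 1 gene of each list was higher (*Atp6ap2* and *Sp5*). The 3 were *Tnfrsf19* (-1.25), *Smoc2* (-0.94) and *Sox9* (-0.71), the last from 3053, 3743 and 2798 normalized counts in wild type to 1933, 1900 and 2020 in mutant libraries. The R-spondin receptor gene *Lgr5* was lower without overlap but was not called (-0.52, SE 0.15, adjusted p = 0.020). *Sox9* and *Gpc3* were called in each of the 6 fits that left out a library. *Tnfrsf19* was not called without wild type library 2 (-0.99) or mutant library 1 (-1.19) or 2 (-1.21), and *Smoc2* was not called without wild type library 1 (-0.73) or 2 (-0.89) or mutant library 1 (-1.01) or 3 (-0.71).

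Fold change moved with transcript length in these libraries, and the tested members had longer transcripts, with a median of 4081 bases against 3063 over all tested genes. In the class of 3000 to 4000 bases the 9 members had a median log2 fold change of -1.02, against -0.14 for 2310 genes, while the 14 members of 4000 to 6000 bases had -0.25 against -0.19 and the 5 longer ones -0.10 against -0.11. After a loess correction for length the members' median was -0.40 against -0.09, and of the calls only that of *Fzd10* was lost.

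**Figure D5:**
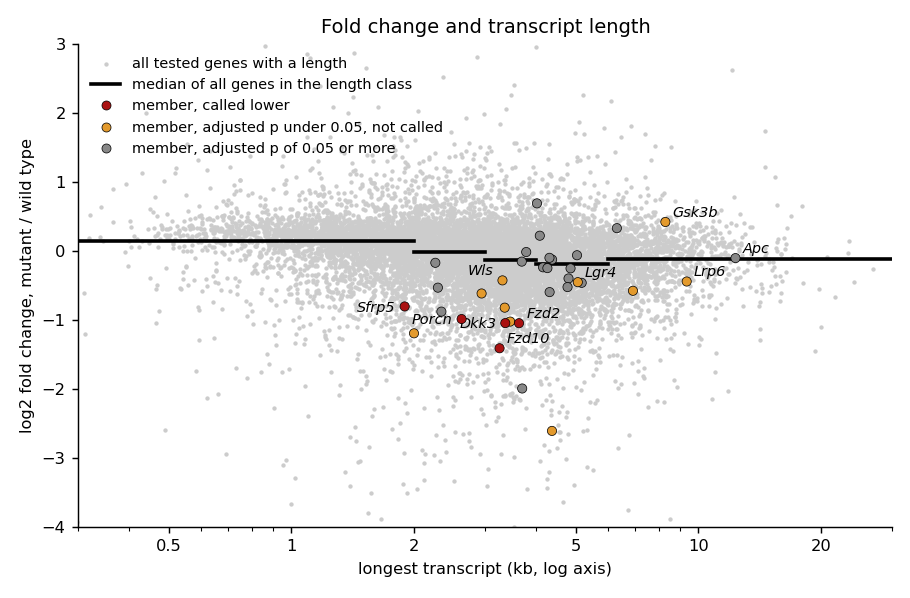
The log2 fold change (mutant over wild type, y axis) against the length of the longest transcript in kilobases (log x axis), with all tested genes in light grey, black bars for the median of all genes in each length class and members as larger circles. The 5 called members (red) lie between 1 and 4 kilobases and below the bars, and the 5 members over 6 kilobases lie on both sides of their bar. 67 genes fall outside the y axis.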

How the data were processed

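RNA-sequencing read counts of 6 libraries were analysed. Per the study's methods and the submitters' processing notes, reads were mapped to mm9 with STAR 2.5.2b and uniquely mapping reads were counted per gene with featureCounts 1.5.1, and the authors deposited the raw counts, with no normalization, in a table for each library. The strand setting is not given in the sources used here, so reads of a gene and of exons on its opposite strand cannot be told apart. The series calls the 3 libraries of a group biological replicates without saying whether they came from separate embryos or litters, so p-values measure the spread between these libraries.

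The edgeR package (4.0.16, R 4.3.3) was used for the test (TMM, filterByExpr with a minimum count of 10, quasi-likelihood test on genotype, Benjamini-Hochberg adjustment over all 12501 tested genes, common dispersion 0.0209). A gene was called at an adjusted p under 0.01 where its log2 fold change was 0.5 or more in size and its normalized counts averaged 50 or more. RPKM was computed here from TMM-scaled CPM and the longest transcript of a gene in an mm9 annotation. Ratios of reads summed over a group carry exact 95% intervals, which, like the floor of 3 counts, cover counting error only, since reads without molecular identifiers are not independent molecules. A BLAST 2.17.0 search (at least 95% identity) found no near-identical copy of any of the 62 members. Same-numbered libraries did not deviate together, so the numbers were not used as pairs. On simulated counts of 12501 genes with 200 changed, the edgeR test recovered 96% of the changed genes (94% of those changed by a log2 of 1) with 0 false calls. These rates hold for the spread of the simulated counts and are not rates for the members. Among members averaging 50 or more, *Wnt11* (-1.02, SE 0.35) and *Sfrp2* (-1.19, SE 0.38) passed a log2 of 1 in size without being called. *Fzd2*, *Fzd10* and *Dkk3* passed it and were called.

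The members and lists were chosen with earlier results of these data known. Named are members called or at an adjusted p under 0.05, the 3 of each role with the highest level per length, members with at least 20 normalized counts in a library and at most 3 in another, and up to 4 called genes of each other list. Other members and genes named beside them were chosen after their values were seen. Alternatives were DESeq2 1.42.0, RLE scaling, library size only, no filter, a filter at a mean of 50, a loess length correction (span 0.5), a replicate block, other call limits and each library left out.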

Additional observations from a re-analysis of the deposited data

How the results depend on the processing

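The 5 members called lower became 10 at an adjusted p under 0.05, 3 at a log2 fold change of 1 or more in size and 1 at a mean RPKM of at least 50. With library size only or no minimum fold change, *Lgr4* and *Wls* were called as well, and with the length correction *Fzd10* was lost. Without single libraries 1 to 6 members were called lower (1 without wild type library 1 or mutant library 1, 3 without wild type library 2). The share of all tested genes called lower in those fits ran from 3.18 to 6.79%. None was called higher in any of these fits or limits, by edgeR or by DESeq2. The 1 other pathway gene called lower became 3 with DESeq2, with library size only or with a filter at a mean of 50, 4 with no filter on low counts, 2 with the replicate block, 7 at an adjusted p under 0.05, 5 with no minimum fold change, and 1 to 6 without single libraries (6 without wild type library 3). The 0 called higher became 1 with no minimum fold change and 0 to 1 without single libraries. The 3 target genes called lower became 5 at an adjusted p under 0.05, 1 at a log2 fold change of 1 or more in size, 0 at a mean RPKM of at least 50, and 1 to 4 without single libraries. Without single libraries, 16 to 26 members did not overlap lower and 1 to 2 higher (26 without wild type library 3), since fewer libraries overlap less. The share of all tested genes without overlap was not computed for those fits. The counts are therefore not read as a result about the members.

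Replicate numbers marked no shared animal, and deviations of same-numbered libraries correlated at 0.01, -0.04 and -0.02. With the replicate block the members called lower were 4, *Fzd10* being lost at -1.41 (adjusted p = 0.011), and *Tcf7l1* was at -3.19. Of 450 fits of single members under alternatives, 411 kept direction and side of the limits, 17 lost a call, 6 gained 1 and 16 turned direction. Those that turned were never called. *Axin1* was at 0.0057 with DESeq2, 0.0056 with RLE and 0.049 with the length correction, and *Dvl2* at 0.014 with the length correction. Without single libraries the ranges that crossed 0 were -0.19 to 0.071 for *Axin1*, -0.22 to 0.050 for *Dvl2*, -0.79 to 0.26 for *Fzd4*, -3.02 to 0.36 for *Fzd9*, -0.21 to 0.037 for *Rnf43*, -0.51 to 0.012 for *Axin2*, -0.22 to 0.049 for *Apc* and -0.38 to 1.28 for *Nkd2*. The cause was not tested.

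Over all genes, 729 called lower became 405 without wild type library 1, 406 without wild type library 2 and 463 without mutant library 2. For 27 members the reads were too few for the test, and the counting intervals of *Wnt4* and *Sfrp4* among them span several-fold.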
